A study of Mus musculus with 6 samples.

Results

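Mitochondrial fatty acid oxidation ends in a short chain of enzymes that shorten an acyl chain and pass its electrons on, and 10 genes of these later steps were followed here in mouse dorsal skin treated with rebamipide or with vehicle. The genes were Hadha and Hadhb, which encode the subunits of the mitochondrial trifunctional protein, the matrix enzyme genes Echs1, Hadh and Acaa2, the auxiliary enzyme genes Eci1 and Decr1, and Etfa, Etfb and Etfdh, which carry electrons from the pathway to the respiratory chain. They were taken by name from a deposited table of 21959 genes, and each of the 10 names matched 1 row. All 10 passed the expression filter, which left 14875 genes for testing.

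The 6 libraries came from wildtype male C57BL/6 mice, 7 weeks old, shaved on the back while their hair follicles were in telogen, the resting phase. For 7 days, 3 mice received the vehicle each day on the skin, a mixture of 30% dipropylene glycol and 70% distilled water by volume, and 3 mice received 3% rebamipide, a drug used for gastric mucosal lesions. RNA was taken from 200 mg of full-thickness dorsal skin per mouse, and poly-A libraries were sequenced. The comparison of the groups asked how topical rebamipide alters gene expression in skin before hair regrowth begins.

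Between 32709801 and 39915276 reads were counted on genes per library, and the mitochondrial genome supplied 2.59% to 5.36% of these reads with vehicle and 13.28% to 21.96% with rebamipide. Counts were therefore scaled with edgeR's TMM factors, and the levels given as CPM are shares of a library's counts after this scaling. Across all genes tested the median change was -0.17 on the log2 scale with these factors, and it was -0.78 without them. The third rebamipide library stood apart from the description of the samples as full-thickness skin: Krt14, a keratin of the basal epidermis, had 0 counts there, and 2 of 7 basal and 4 of 8 suprabasal keratinocyte markers were at 0. The calls, ratios and counts of related genes are therefore also given without it. Leaving it out does not address differences shared by all 3 rebamipide libraries. Summed basal keratinocyte markers were 144 to 1183 CPM there against 2513 to 4053 with vehicle, and brown adipocyte markers 5040 to 12960 against 214 to 384. The p-values measure the spread between 3 mice per group. In whole skin, fewer cells of a type and less RNA per cell cannot be told apart.

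In beta-oxidation an acyl-CoA dehydrogenase first introduces a double bond, and the later enzymes then add water, oxidise the resulting hydroxyl group and cleave off acetyl-CoA. Long chains are handled at the inner mitochondrial membrane by the trifunctional protein, and shorter chains by soluble enzymes of the matrix. Double bonds already present in unsaturated chains are moved or reduced by auxiliary enzymes. The electrons of the first step go to electron transfer flavoprotein (ETF), a heterodimer of the Etfa and Etfb products, and from it through the Etfdh product to ubiquinone. In brown adipose tissue, heart and muscle this pathway is a main source of energy, while white adipocytes mostly store fat.

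Hadha and Hadhb lie head to head on chromosome 5. In the deposited table (positions in GRCm39) Hadha spans 30323302 to 30360160 on the minus strand and Hadhb 30360246 to 30389591 on the plus strand, which leaves 85 bases between them. Etfa (chromosome 9, 55361792 to 55419527, minus strand) and Etfb (chromosome 7, 43093507 to 43107224, plus strand) encode partners of 1 heterodimer from separate chromosomes. The sequences before the starts of these genes are shown because a shared and an unshared promoter can be set beside the ratios of subunits given later. They come from RefSeq promoter windows of the GRCm38.p6 build, cut to the bases outside annotated exons, and are written 5′ to 3′ on the strand of the gene named. Capitals mark the GC box letters GGGCGG in the first, CCAAT letters in the second, and CCAAT letters together with the NRF1 letters GCATGCGC in the third, each on either strand.
Hadhb, with the first 68 bases also in the stretch of Hadha on the other strand, chr5:30155163-30155247, plus strand: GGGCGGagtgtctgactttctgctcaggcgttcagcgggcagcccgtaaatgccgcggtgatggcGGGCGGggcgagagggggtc
Etfb, chr7:43443822-43444082, plus strand: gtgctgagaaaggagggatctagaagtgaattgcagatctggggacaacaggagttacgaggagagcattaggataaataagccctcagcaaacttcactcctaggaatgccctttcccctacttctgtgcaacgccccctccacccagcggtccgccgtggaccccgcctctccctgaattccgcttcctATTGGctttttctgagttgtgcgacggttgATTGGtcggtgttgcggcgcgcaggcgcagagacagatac
Etfa, chr9:55512244-55512493, minus strand: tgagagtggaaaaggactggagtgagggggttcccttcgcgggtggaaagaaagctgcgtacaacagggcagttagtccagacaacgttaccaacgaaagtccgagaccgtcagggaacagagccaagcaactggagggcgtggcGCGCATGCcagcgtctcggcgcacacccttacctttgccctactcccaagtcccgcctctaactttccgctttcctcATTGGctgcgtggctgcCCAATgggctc

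Promoter windows of 8 of the 10 genes, all but Acaa2 and Decr1, were searched on both strands. The GC box was found in 7 of the 8 windows, all but that of Etfa, against 35.66% of 32851 mouse windows of the same length. CCAAT was found in 4 windows, those of Hadh, Etfa, Etfb and Etfdh, against 37.41% of all windows. The NRF1 letters were found in 2 windows, those of Etfa and Etfdh, against 2.71%. The estrogen-related receptor letters TNAAGGTCA (1.28% of all windows) and a direct repeat of AGGTCA with 1 base between (0.04%) were found in none of the 8. No match of one motif overlapped that of another, the windows of Hadha and Hadhb share 228 bases, and a match is only a description of these letters.

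All 10 genes were higher in rebamipide-treated skin. The fitted log2 fold changes ran from 3.19 for Etfa to 4.46 for Hadhb, with a median of 3.55, and the adjusted p-values of edgeR's quasi-likelihood test ran from 0.00939 to 0.00993. Of all genes tested, 14.1% were called higher at an adjusted p-value under 0.05, and the median change of all genes was -0.17. At the study's thresholds, an unadjusted p-value under 0.05 with a log2 fold change over 1, all 10 were called as well, against 14.3% of all genes. In all 10 the lowest rebamipide library lay above the highest vehicle library, which held for 24.5% of all genes tested, while for 0 of the 10 genes and 24% of all genes tested every rebamipide library lay below every vehicle library. That gap was smallest for Etfa, at 4.39-fold, and largest for Hadhb, at 11.95-fold. Together the 10 genes made up 0.121% to 0.137% of a vehicle library and 0.82% to 1.32% of a rebamipide library.

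The calls held without the third rebamipide library, with log2 fold changes of 2.96 to 4.25 and adjusted p-values of 0.0206 to 0.0222 in edgeR's quasi-likelihood test. The adjusted calls of all 10 genes were lost without the second vehicle library (adjusted p = 0.0747 for each, edgeR) and without the second rebamipide library (adjusted p = 0.0573 for each, edgeR), while the log2 fold changes stayed at 3.14 to 4.47 and 3.10 to 4.39. Without the same libraries DESeq2 still called all 10, and limma-voom called 9 of 10, all but Etfb.

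The spread within a group was shared by the genes. Among the rebamipide libraries the first was the lowest and the third the highest for all 10 genes, and the highest was 1.78-fold to 2.27-fold above the lowest. Among the vehicle libraries the first was the lowest for 8 genes, while for Hadha and Acaa2 it was the highest. The plot of levels by library shows this order.

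**Figure D1:**
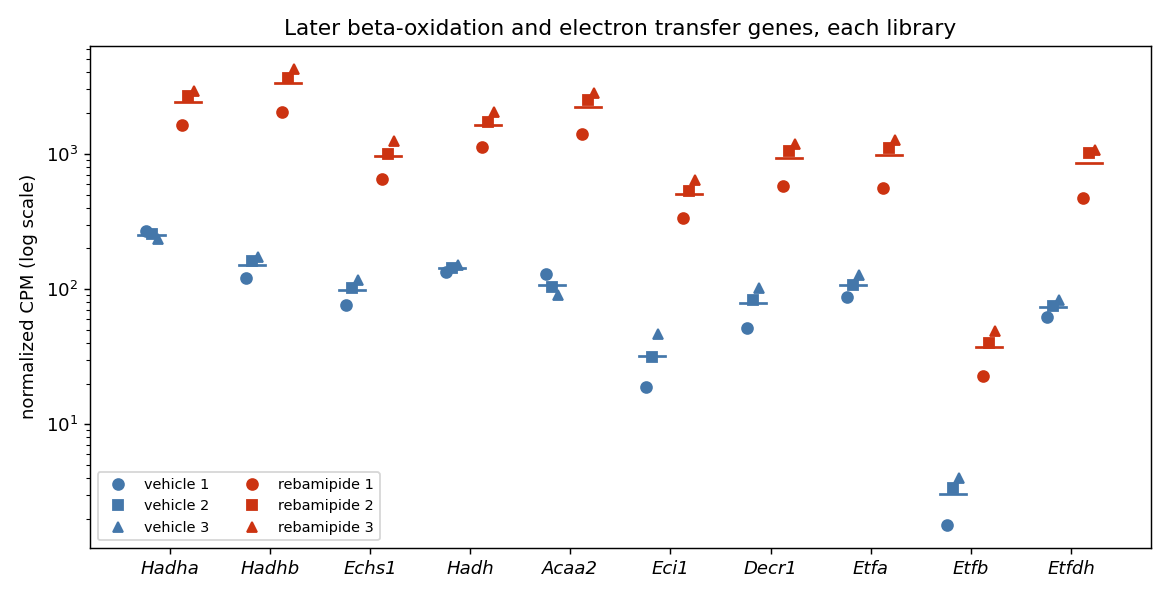
Normalized CPM (log axis) of the 10 genes in each library, with 3 vehicle libraries in blue, 3 rebamipide libraries in red and a line at each group mean. For every gene all red points lie above all blue points, and the third rebamipide library is the highest of its group.

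Both genes of the trifunctional protein rose. Hadha (ENSMUSG00000025745) encodes the alpha subunit, which hydrates long-chain enoyl-CoA and oxidises the product. It was measured at 268, 254 and 234 CPM in vehicle-treated and at 1634, 2669 and 2910 CPM in rebamipide-treated skin. The vehicle libraries were close together and the rebamipide libraries were all several-fold higher, from 252 ± 16.6 to 2404 ± 678 CPM (mean ± SD, n = 3 per group), with a log2 fold change of 3.25 (SE 0.34, adjusted p = 0.00939, edgeR). Hadhb (ENSMUSG00000059447) encodes the beta subunit, the long-chain thiolase that releases acetyl-CoA. Its levels were 120, 161 and 171 CPM with vehicle and 2049, 3642 and 4261 CPM with rebamipide. Hadhb rose from 151 ± 27.3 to 3317 ± 1141 CPM (n = 3 per group), which was the largest log2 fold change of the 10 genes (4.46, SE 0.42, adjusted p = 0.00939, edgeR) and the 64th largest rise of all genes tested. Hadha overlaps the opposite-strand gene Garem2 over 75 bases, and Garem2 had at most 10 counts in any library.

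The matrix enzymes for shorter chains rose as well. Echs1 (ENSMUSG00000025465; chromosome 7, 139685623 to 139696389, minus strand) encodes short-chain enoyl-CoA hydratase. It had 76.8, 102 and 118 CPM with vehicle and 654, 1004 and 1241 CPM with rebamipide, a log2 fold change of 3.29 (SE 0.35, adjusted p = 0.00939, edgeR). Echs1 overlaps the opposite-strand gene Paox over 678 bases, and Paox held 1008 to 1149 counts with vehicle and 1132 to 1484 with rebamipide, while Echs1 held 3833 to 5498 and 19870 to 32516.

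Hadh (ENSMUSG00000027984; chromosome 3, 131027068 to 131065750, minus strand) encodes the hydroxyacyl-CoA dehydrogenase for short and medium chains. It varied little among vehicle mice, at 133, 143 and 151 CPM, and reached 1124, 1734 and 2027 CPM with rebamipide. The groups were far apart, and the log2 fold change was 3.51 (SE 0.33, adjusted p = 0.00939, edgeR). 

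Acaa2 (ENSMUSG00000036880) encodes the mitochondrial thiolase for medium chains. Its levels were 130, 103 and 90.4 CPM with vehicle and 1398, 2481 and 2811 CPM with rebamipide. It rose from 108 ± 20.02 to 2230 ± 739 CPM (n = 3 per group), the second largest change of the genes followed here (log2 fold change 4.37, SE 0.40, adjusted p = 0.00939, edgeR). The thiolase genes Acaa2 and Hadhb thus had the largest fitted changes of the 10, although their standard errors overlap that of Eci1.

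Both auxiliary enzyme genes rose from low vehicle levels that varied between mice. Eci1 (ENSMUSG00000024132; chromosome 17, 24645615 to 24658322, plus strand) encodes an enoyl-CoA isomerase that shifts a double bond into the position the pathway can use. It had 18.9, 31.2 and 46.4 CPM with vehicle, the widest relative spread within the vehicle group at 2.45-fold, and 337, 527 and 638 CPM with rebamipide. The rise was still larger than this spread (log2 fold change 3.96, SE 0.45, adjusted p = 0.00939, edgeR). Decr1 (ENSMUSG00000028223; chromosome 4, 15917240 to 15945507, minus strand) encodes mitochondrial dienoyl-CoA reductase, which removes a double bond from polyunsaturated chains. It had 51.6, 83.1 and 102 CPM with vehicle and 581, 1056 and 1174 CPM with rebamipide, a log2 fold change of 3.57 (SE 0.43, adjusted p = 0.00953, edgeR).

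The electron transfer genes rose by similar factors. Etfa (ENSMUSG00000032314), the alpha subunit of ETF, had 87.8, 108 and 128 CPM with vehicle and 561, 1111 and 1272 CPM with rebamipide. Its log2 fold change of 3.19 (SE 0.40, adjusted p = 0.00993, edgeR) was the smallest of the 10. Etfdh (ENSMUSG00000027809; chromosome 3, 79511095 to 79536807, minus strand) encodes the membrane flavoprotein that takes electrons from ETF to ubiquinone. It had 62.3, 75.0 and 83.3 CPM with vehicle and 472, 1015 and 1066 CPM with rebamipide, with a log2 fold change of 3.53 (SE 0.40, adjusted p = 0.00939, edgeR). The second and the third rebamipide library were close together for Etfdh, and the first was the lowest.

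Etfb (ENSMUSG00000004610), the beta subunit of ETF, was listed far below its partner. It had 1.80, 3.37 and 3.98 CPM with vehicle and 22.6, 39.7 and 49.3 CPM with rebamipide, from 90, 166 and 186 counts and from 685, 1019 and 1291 counts. The groups did not overlap, and the log2 fold change was 3.61 (SE 0.46, adjusted p = 0.00993, edgeR). The level of Etfb is uncertain, because the same-strand gene Etfbl overlaps it over 13673 bases and shares 53.0% of its exonic bases in the GRCm38 annotation. Etfbl was listed with 0 counts in all 6 libraries. Whether reads on the shared bases were left out of the counts was not tested. Etfdh overlaps an opposite-strand gene, 4930579G24Rik, over 422 bases, and that gene had 91 to 218 counts per library.

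**Figure D2:**
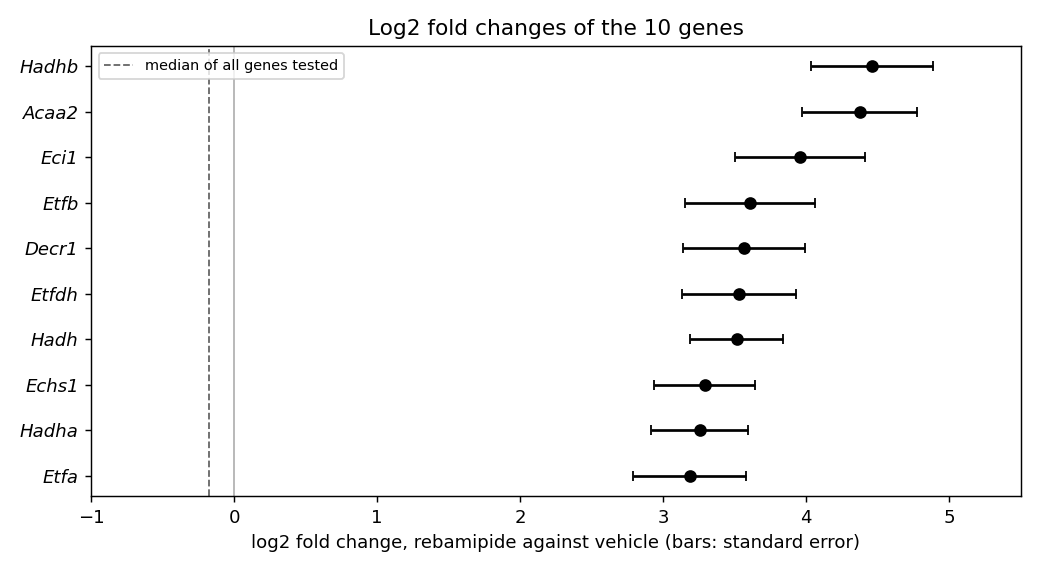
Log2 fold change of each gene, rebamipide against vehicle, from edgeR, with bars for the standard error and a dashed line at the median of all genes tested. All 10 points lie between 3.19 and 4.46, far to the right of the median of -0.17, and neighbouring error bars overlap.

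Levels were compared between genes per length, as FPKM. The deposited lengths run from 1164 bases for Etfb to 8730 for Hadha, and whether they match the transcripts in skin was not tested. The order below, and the levels of the ratios given later, rest on these lengths. By CPM, Hadha (252) was the highest with vehicle, where Acaa2 had 108. With rebamipide, Hadhb (3317) was above Acaa2 (2230). The place of Etfb is uncertain because of its overlap with Etfbl. With vehicle Acaa2 was the highest at 88.3 ± 19.0 FPKM (mean ± SD, n = 3), followed by Etfa at 72.6 ± 11.5, Hadha at 35.8 ± 3.33, Hadh at 35.5 ± 1.32, Hadhb at 28.2 ± 4.43, Decr1 at 25.1 ± 7.56, Eci1 at 18.6 ± 7.52, Echs1 at 14.7 ± 2.69, Etfdh at 12.1 ± 1.42 and Etfb at 3.23 ± 1.12. Of neighbours in this order only Etfa and Hadha, Hadh and Hadhb, and Etfdh and Etfb did not overlap between libraries. With rebamipide the order by FPKM was Acaa2 (1159 ± 277), Etfa (420 ± 123), Hadhb (396 ± 101), Hadh (259 ± 48.8), Hadha (218 ± 39.98), Decr1 (190 ± 46.2), Eci1 (186 ± 39.6), Echs1 (92.3 ± 19.9), Etfdh (88.9 ± 26.6) and Etfb (25.1 ± 6.99). Here Acaa2 and Etfa, Eci1 and Echs1, and Etfdh and Etfb did not overlap. Of the 10 genes, only Hadha and Hadhb exchanged places by mean FPKM, Hadha being above Hadh and Hadhb below it with vehicle and the reverse with rebamipide.

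Ratios between the genes within a library do not depend on the scaling between libraries, and 6 such ratios of FPKM were compared between groups with a two-sided exact permutation test, whose smallest p-value with 3 against 3 mice is 0.1. The ratio of Hadha to Hadhb was 1.69, 1.19 and 1.03 with vehicle and 0.602, 0.554 and 0.516 with rebamipide. The ratio was lower in every rebamipide library than in any vehicle library, with a difference in log2 ratio of -1.20 (exact permutation p = 0.1, adjusted over the 6 ratios 0.12).

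Of the electron transfer genes, the ratio of Etfa to Etfb was 30.9, 20.3 and 20.4 with vehicle and 15.8, 17.8 and 16.4 with rebamipide, a difference in log2 ratio of -0.49 that was -0.29 without the first vehicle library. The level of this ratio is as uncertain as that of Etfb, which overlaps Etfbl and had 90 counts in the first vehicle library. The ratio of Etfdh to Etfa was 0.173, 0.170 and 0.159 with vehicle and 0.206, 0.223 and 0.205 with rebamipide. This difference of 0.33 in log2 ratio was small, but the groups did not overlap in either ratio (exact permutation p = 0.1, adjusted 0.12, for each).

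The other comparisons set enzymes of like function beside each other. For the dehydrogenases, the ratio of Hadh to Hadha was 0.871, 0.992 and 1.13 with vehicle and 1.21, 1.14 and 1.22 with rebamipide. For the auxiliary enzymes, the ratio of Decr1 to Eci1 was 1.49, 1.46 and 1.21 with vehicle and 0.944, 1.10 and 1.01 with rebamipide. Neither overlapped between groups, with differences in log2 ratio of 0.26 and -0.45 (exact permutation p = 0.1, adjusted 0.12, for each), and the first fell to 0.17 without the first vehicle library. For the thiolases, the ratio of Acaa2 to Hadhb was 4.71, 2.78 and 2.30 with vehicle and 2.97, 2.96 and 2.87 with rebamipide, so the groups overlapped (difference in log2 ratio -0.08, exact permutation p = 1). Without the first vehicle library that difference was 0.22, in the other direction. Without the third rebamipide library the differences in log2 ratio were -1.14 for Hadha to Hadhb, -0.48 for Etfa to Etfb, 0.35 for Etfdh to Etfa, 0.24 for Hadh to Hadha, -0.44 for Decr1 to Eci1 and -0.07 for Acaa2 to Hadhb. The exact permutation p was then 0.1 for Hadha to Hadhb and for Etfdh to Etfa. It rose to 0.3 for Etfa to Etfb, and to 0.2 for Hadh to Hadha and for Decr1 to Eci1, although these ratios still did not overlap between groups.

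**Figure D3:**
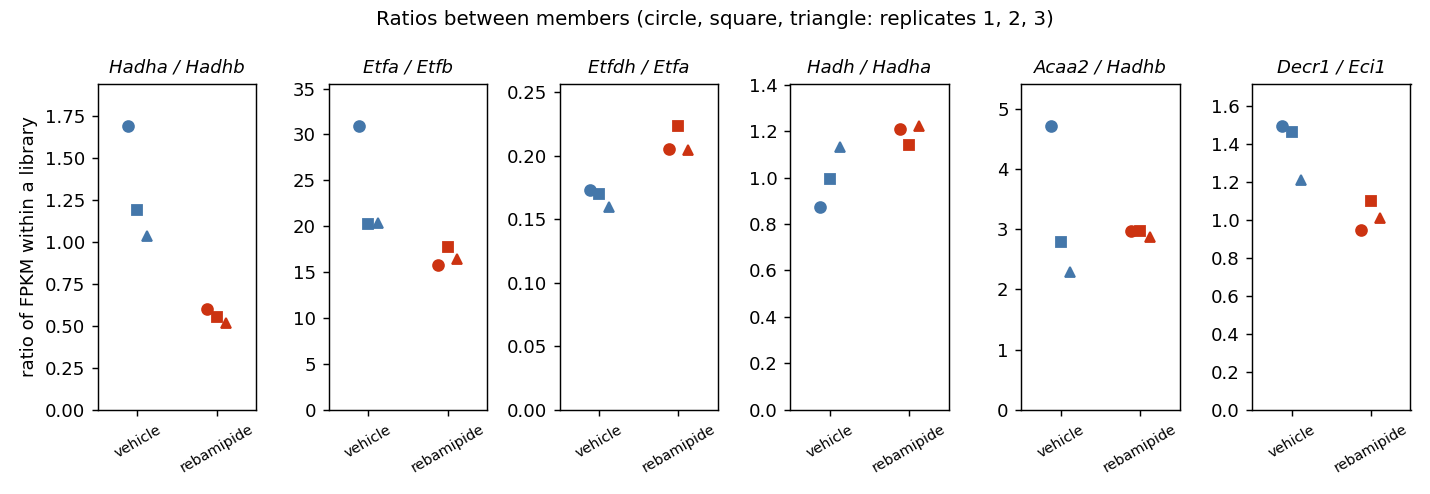
Ratios of FPKM between pairs of the genes within each library, 1 panel per pair, for 3 vehicle (blue) and 3 rebamipide (red) libraries, on axes that start at 0. The ratio of Hadha to Hadhb is 1.03 to 1.69 with vehicle and 0.516 to 0.602 with rebamipide, and only the ratio of Acaa2 to Hadhb overlaps between groups.

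Related genes were taken from 6 lists of 57 genes in all, which cover the rest of the pathway, its peroxisomal counterparts, and relatives of the enzyme families outside it. Of the 56 that could be tested, 43 were called higher and none lower in edgeR's quasi-likelihood test, against 14.1% of all genes called higher and 6.51% called lower, and their median log2 fold change was 2.19. With scaling by total counts alone 41 were called higher and 3 lower, and over the whole table the higher calls went from 68.4% to 25.1% of all calls. Without the third rebamipide library edgeR called 39 higher, and without the second vehicle or the second rebamipide library it called 0, where limma-voom called 15 in each case and DESeq2 44 in each case. The dimethylglycine dehydrogenase gene Dmgdh did not pass the expression filter. The plot of log2 fold changes by list shows these genes beside the 10.

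Genes of fatty acid entry and of the first oxidation step were called higher in 8 of 11 cases, and their median change was 3.78 on the log2 scale. The 3 with the highest FPKM were the acyl-CoA dehydrogenase genes Acadl (log2 fold change 4.31, SE 0.44, adjusted p = 0.00939, edgeR), Acadm (4.10, SE 0.51, adjusted p = 0.00993) and Acadvl (4.45, SE 0.37, adjusted p = 0.00939), whose enzymes hand their electrons to ETF. These 3 genes were thus within the range of the 10 genes. The 3 not called higher were Cpt1a (log2 fold change -0.83), Cpt1c (-1.05) and Acad9 (-0.35), while Cpt1b, the muscle and brown fat form of carnitine palmitoyltransferase, had a log2 fold change of 5.74 (SE 0.88, adjusted p = 0.0123, edgeR).

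Of other mitochondrial acyl-CoA enzymes 10 of 10 were called higher, and the median change was 2.43 on the log2 scale. The most abundant were Ech1 (3.59), a dienoyl-CoA isomerase, Acat1 (2.55), the acetoacetyl-CoA thiolase, and Pccb (3.31), a subunit of propionyl-CoA carboxylase. Of 9 tested genes for other enzymes that feed electrons to ETF, 7 were called higher, with a median of 2.04. Ivd (2.31) and Gcdh (2.04), dehydrogenases of leucine and lysine breakdown, were among those called, and Acadsb (log2 fold change 1.22, adjusted p = 0.178, edgeR) was not.

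Of 5 genes that act on ETF or supply its flavin, 4 were called higher, and the median change was 1.55 on the log2 scale. The most abundant were Rfk (1.51), which makes flavin mononucleotide, Etfrf1 (2.70), a regulator of ETF, and Etfbkmt (2.96), which methylates the ETF beta subunit, and Slc25a32, the mitochondrial flavin carrier, missed the threshold (1.00, adjusted p = 0.0610, edgeR). Of 12 peroxisomal counterparts, 10 were called higher with a median of 1.80, among them Scp2 (1.80) and Hsd17b4 (1.73). Relatives of the crotonase and thiolase families outside the pathway had the lowest median, 0.90, with 4 of 9 called higher. Of these Hmgcs1, a gene of cholesterol synthesis, had a log2 fold change of 0.06 (adjusted p = 0.908, edgeR), Acat2 one of 1.60 and Hibch one of 2.79. The medians of all 6 lists thus lay above that of all genes, and the 10 genes and the entry and first step list had the highest medians. Differences between lists were not tested.

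**Figure D4:**
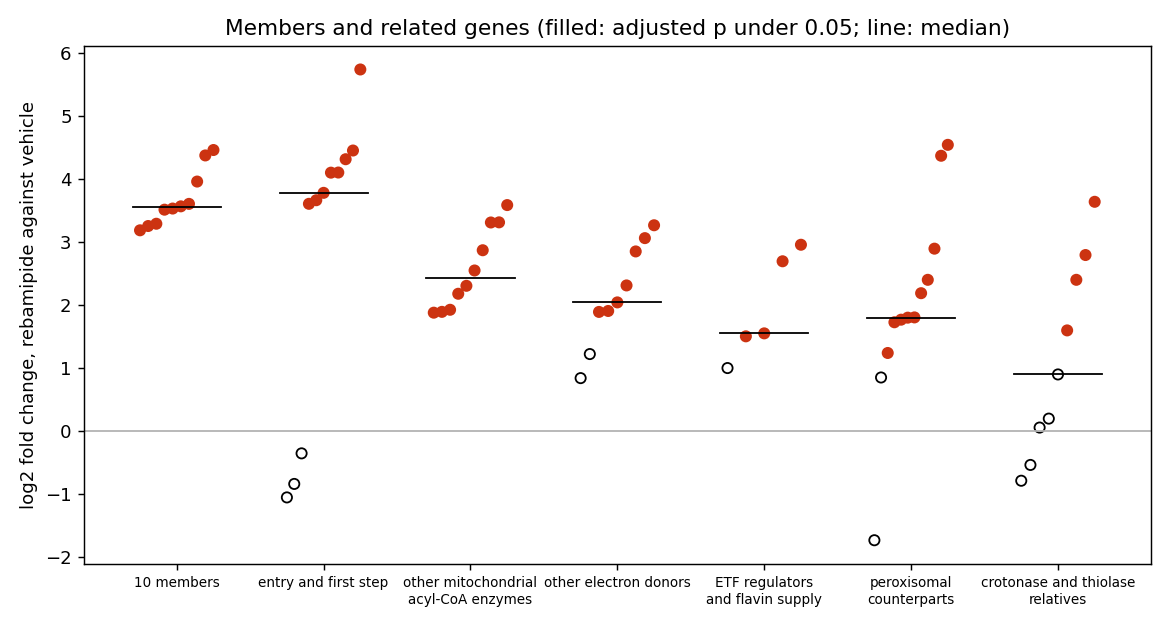
Log2 fold change, rebamipide against vehicle, of the 10 genes and of 6 lists of related genes, with filled points for an adjusted p-value under 0.05 in edgeR, open points for genes not called and a line at each median. The medians run from 0.90 for crotonase and thiolase relatives to 3.78 for entry and first step genes, and the 10 genes have a median of 3.55.

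The profile of the 10 genes over the 6 libraries was compared with those of 13368 other genes by the root mean square difference of their centred log2 CPM. The 8 most alike genes were Cpt2, Akap1, Suclg1, Acads, Sh2b2, Ppargc1b, Crls1 and Ltbp2, with differences from 0.0515 to 0.120 and log2 fold changes from 3.57 to 3.86. Cpt2 (29.6, 41.3 and 44.9 CPM with vehicle, 320, 541 and 606 CPM with rebamipide) encodes the inner membrane carnitine palmitoyltransferase, and Acads the short-chain acyl-CoA dehydrogenase. Of the 10 genes themselves, Etfdh (0.124) and Hadh (0.126) were closest to the mean profile and Acaa2 (0.458) and Hadhb (0.397) farthest from it. These values describe 6 libraries of which 3 are high for every gene named.

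Markers of several cell types moved with the 10 genes. The summed level of 12 adipocyte markers was 2274 to 6307 CPM with vehicle and 15110 to 29300 CPM with rebamipide, and 8 of 12 were called higher. The summed level of 8 brown adipocyte markers was 214 to 384 CPM with vehicle and 5040 to 12960 CPM with rebamipide, and 6 of 8 were called higher. The defining brown fat gene Ucp1 was at 0 counts, which allows up to 3, in each mouse given vehicle and at 81048, 220449 and 150572 counts in those given rebamipide. Elovl3, a fatty acid elongase gene of the same list, was lower in each rebamipide library than in any vehicle library but was not called (181 ± 55.1 and 66.3 ± 28.5 CPM, n = 3 per group, log2 fold change -1.45, adjusted p = 0.0575, edgeR). The sums of these lists and the 10 genes were thus high in the same 3 libraries, and the part of these cells in the result was not tested.

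Set against the adipocyte markers within each library, the summed CPM of the 10 genes was 0.417, 0.262 and 0.179 of the summed adipocyte CPM with vehicle and 0.585, 0.625 and 0.596 with rebamipide, so these ratios did not overlap. Per CPM of Adipoq, the adiponectin gene, the 10 genes held 5.07, 3.72 and 2.08 CPM with vehicle and 8.21, 11.2 and 9.84 CPM with rebamipide. Per CPM of Plin1, which coats lipid droplets, they held 9.88, 5.67 and 3.34 CPM with vehicle and 9.32, 12.5 and 10.8 CPM with rebamipide. Per CPM of Pnpla2, the adipose triglyceride lipase gene, they held 8.06, 5.58 and 3.37 CPM with vehicle and 4.47, 4.399 and 4.25 CPM with rebamipide. The groups were apart for Adipoq and overlapped for Plin1, through the first vehicle library, and for Pnpla2. Of the 12 adipocyte markers taken in turn as the denominator, 8 gave ratios above those of all vehicle libraries in every rebamipide library and 4 (Plin1, Lipe, Dgat2 and Pnpla2) gave overlapping groups. The separation was slight for Fabp4 (1.557 at the lowest with rebamipide, 1.554 at the highest with vehicle) and Pparg (50.1 and 48.7). The markers themselves ranged in log2 fold change from -0.53 for Lep to 3.89 for Pnpla2, and Retn (-0.23) and Cfd (0.34) were not called either. Against the summed brown adipocyte list the direction was the opposite. Its sums were 214, 225 and 384 CPM with vehicle and 5040, 12960 and 10700 CPM with rebamipide. The 10 genes summed to 949, 1063 and 1129 CPM and to 8833, 15279 and 17449 CPM in the same libraries. Per brown adipocyte CPM the 10 genes were thus lower in every rebamipide library than in any vehicle library.

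Fast muscle markers did not follow the 10 genes. The summed level of the fast muscle list was 5341, 22650 and 26500 CPM with vehicle and 34060, 7263 and 274 CPM with rebamipide, with 0 of 9 tested genes called. The third rebamipide library, the highest for all 10 genes, was thus the lowest of all 6 for fast muscle markers. Slow muscle markers summed to 2.07 to 13.5 CPM with vehicle and 290, 129 and 7.02 CPM with rebamipide, and 4 of 6 were called higher.

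No keratinocyte marker was called in either direction. Basal keratinocyte markers summed to 2513 to 4053 CPM with vehicle and 1183, 724 and 144 CPM with rebamipide, and suprabasal markers to 1466 to 5891 CPM and 1416, 993 and 2.60 CPM, with 0 of 7 and 0 of 8 genes called. Fibroblast markers summed to 12040 to 17810 and 1856 to 15160 CPM (0 of 7 called), leukocyte markers to 585 to 1435 and 365 to 1274 CPM (0 of 8 called), and endothelial markers to 249.2 to 607 and 1135 to 1559 CPM (4 of 8 called higher). The third rebamipide library, the highest for all 10 genes, was thus the lowest for both keratinocyte lists, and the part of tissue composition in the result was not tested.

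**Figure D5:**
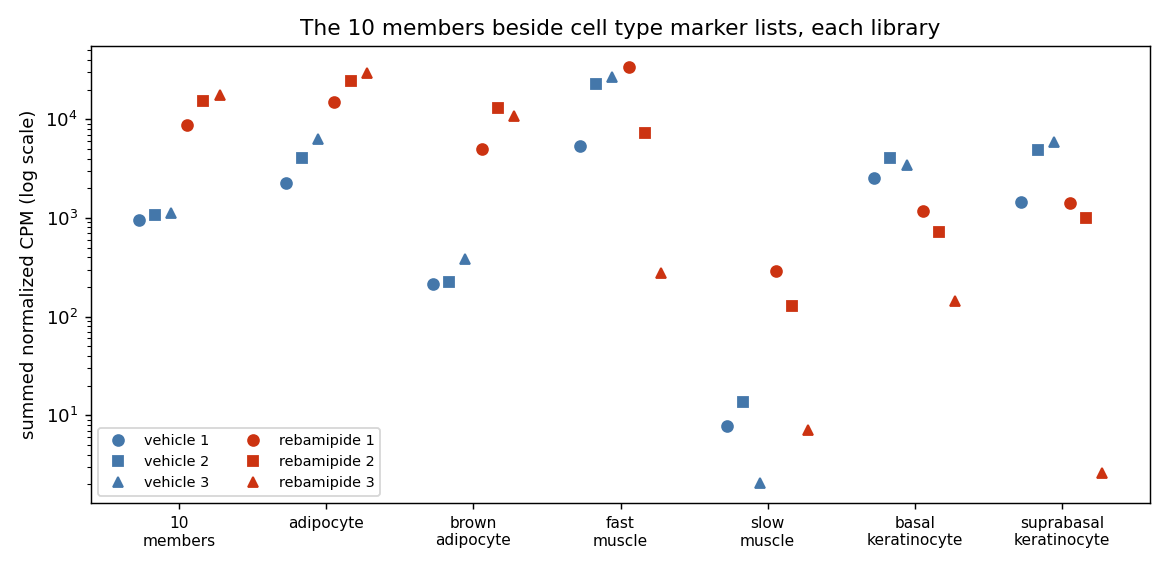
Summed normalized CPM (log axis) of the 10 genes and of 6 cell type marker lists in each of the 3 vehicle (blue) and 3 rebamipide (red) libraries. The 10 genes and both adipocyte lists are higher in every red library, and fast muscle markers overlap between groups. Both keratinocyte lists are lower in every red library and lowest in the third rebamipide library.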

How the data were processed

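Bulk RNA-seq was performed on dorsal skin of 6 mice, 3 per group. The counts deposited by the authors are whole reads per gene, not normalized. In the deposited table FPKM is each count over gene length and library total (0 values were off by more than 1e-06 of the value). The submitters' processing notes name fastp 0.22.0, HISAT2 2.1.0, HTSeq 0.9.1 and GRCm39, and the strand setting of the counting is not given in the sources used here. All per-sample columns matched a sample by name.

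Group differences were tested by the quasi-likelihood method of edgeR 4.0.16 under R 4.3.3, after TMM scaling and filterByExpr and with Benjamini-Hochberg adjustment over 14875 genes, and each gene's SE was computed from its log2 fold change and F statistic. Alternatives were DESeq2 1.42.0, limma-voom and limma on log2(FPKM + 1) in limma 3.58.1, other scalings, filters and thresholds, a replicate block, and each library left out in turn. The fits were tested on simulated counts. Replicates of a group differed by more than sampling noise, with chi-square over its degrees of freedom at 83.1 to 742.

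All 10 genes are named, and of each list of related genes the 3 genes with the highest mean FPKM and any gene called lower, except 1 gene that is not reported here; the most alike genes are the 8 nearest non-members with a mean of at least 50 counts. Cpt1a, Cpt1b, Cpt1c, Acad9, Slc25a32, Ucp1, Elovl3 and the adipocyte markers were picked for mention with their values known. The 10 genes and all lists were chosen with earlier results of these data known. Promoter windows are RefSeq's in GRCm38.p6, and their coordinates were not converted.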

Additional observations from a re-analysis of the deposited data

How the results depend on the processing

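The 10 log2 fold changes were recomputed in 27 settings each, and none of the 270 values changed sign. The adjusted call was lost in 22 of them, namely the 20 edgeR values without the second vehicle or the second rebamipide library and the limma-voom values of Etfb without the same libraries (adjusted p = 0.0547 and 0.0518). All 10 genes were called higher under every other setting. When 1 library was left out in edgeR, the number of the 10 genes called ranged from 0 to 10, genes called higher over the whole table from 0 to 2810, genes called lower from 0 to 1971 and related genes called higher from 0 to 46. The difference in log2 ratio of Acaa2 to Hadhb ranged from -0.302 to 0.217.

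Counts over the table and the lists of related genes moved more than the 10 genes. DESeq2 called 2534 genes lower, 1 of them in the lists of related genes, and limma on log2(FPKM + 1) called 4809 lower, with 5 related genes. Scaling by total counts alone gave 1258 genes higher and 3752 lower, with 3 related genes lower, so 25.1% of its calls were higher against 68.4%. A minimum of 10 counts in every library gave 1512 lower, and an adjusted p-value under 0.01 gave 320 higher, 20 lower and 21 related genes higher. With DESeq2 and 1 library left out, genes called lower numbered 2016, 3043, 4189, 2273 and 1865 without the first vehicle, the third vehicle, the first rebamipide, the second rebamipide and the third rebamipide library. Genes called higher were 3416 and 3657 without the third vehicle or the first rebamipide library, with 3 and 4 related genes lower, and 1 related gene was lower without the second rebamipide library. With limma-voom, genes called higher were 210, 256 and 910 and genes called lower 7, 14 and 268 without the second vehicle, the second rebamipide or the third rebamipide library, with 15 related genes higher without the second library of either group and 1 lower without the first rebamipide library. The cause was not tested.

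Replicate numbers are shared by the groups, and whether they pair the mice is not given in the sources used here. Same-numbered libraries had correlations of -0.073, -0.028 and -0.039 in their deviations, and other pairs had -0.335 to 0.353. With 3 libraries per group these values cannot settle whether mice were paired. A replicate block gave 10 of the 10 genes, 1432 genes higher, 855 lower and 44 related genes higher, with adjusted p-values of 0.0163 to 0.0178 for the 10 in edgeR. Depth did not limit the 10 genes, apart from Etfb with 90 to 186 counts per vehicle library.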
